A study of Homo sapiens with 11 samples.

Results

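Day 60 of a long-term cardiomyocyte culture was compared with the 2 days on either side of it, to find transcripts that peaked or dipped at the middle collection. The cells were hPSC-CMs, cardiomyocytes made from the human iPSC line WTC11 at passage 63. All wells came from 1 differentiation directed with CHIR99021 and then IWP2, were kept in RPMI1640 with B27 and insulin, and were lysed on Day 30 (4 wells), Day 60 (3 wells) or Day 113 (4 wells). No other agent or genotype separated the days. The wells of 1 differentiation and 1 line are the replicates here, so p-values cover the spread between such wells and not between differentiations, and collection and day cannot be told apart. Poly(A) RNA was sequenced, with 24.1 to 34.5 M counts per well on 19990 genes.

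Members were all 19990 genes of the count table, each given 1 value called the contrast, from a fit of the counts over all 11 wells. It is the log2 of the fitted mean at Day 60 minus the average of the log2 fitted means at Day 30 and Day 113. A contrast of 1 is 2-fold above the midpoint of the other days. A contrast also departs from 0 when a gene changes in 1 interval and stays there, so a gene was called a peak or a trough when its contrast passed the test (edgeR quasi-likelihood, Benjamini-Hochberg adjusted p under 0.05) and all 3 Day 60 wells lay outside the range of the other 8 wells. Levels are CPM, counts scaled to a common library size with TMM factors, and are not divided by gene length. Errors on contrasts are standard errors.

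Of the 19990 genes, 1868 were called (9.34%), 875 higher at Day 60 (4.38%) and 993 lower (4.97%), with a median contrast of -0.00337 over all genes. All 3 Day 60 wells lay above the other 8 in 531 genes (2.66%) and below them in 612 (3.06%), and the called ones among these were 331 peaks (1.66%) and 442 troughs (2.21%). In the other 544 higher and 551 lower calls the Day 60 wells were not all beyond the range of the other 8, and in 201 of the called genes the Day 60 mean lay between the other 2 means. Before adjustment, 4842 genes (24.2%) had p under 0.05. Contrasts of at least 1 in size were found for 100 peaks and 161 troughs, and the median size was 0.738 in peaks and 0.727 in troughs. Leaving out Day 60 replicate 1 lowered the calls to 299 higher and 344 lower, leaving out Day 60 replicate 3 lowered them to 446 and 328, and leaving out Day 30 replicate 2 lowered the lower calls to 627. With the other 8 wells pooled as 1 group, so that any difference between Day 30 and Day 113 counts as spread, 33 genes were called higher and 24 lower. Under upper-quartile scaling the calls split 1146 higher to 770 lower (59.8% higher, against 46.8% with TMM). The plot of Day 60 against each other day places the peaks in the upper right and the troughs in the lower left.

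**Figure D1:**
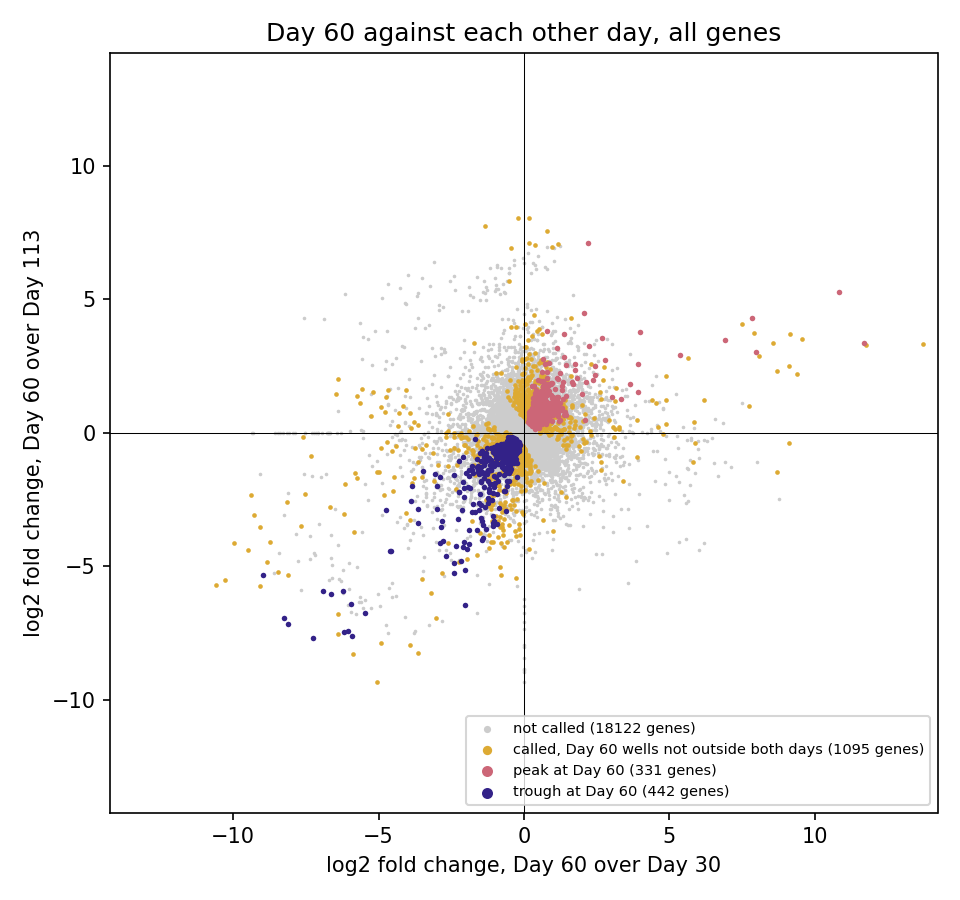
Fitted log2 fold change of every gene at Day 60 over Day 30 (x axis) and over Day 113 (y axis), 1 point per gene. The 331 peaks sit in the upper right and the 442 troughs in the lower left, while for 1095 further called genes the Day 60 wells were not outside the range of the other 8. Folds of genes at or near 0 counts on a day depend on the fit's prior count and are not bounds.

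Several background facts frame the gene groups. Cells that pass through the cell cycle make DNA replication factors before and during S phase under E2F control, and make mitotic cyclins, kinesins and spindle checkpoint proteins in G2 and M phase, through promoters that often carry a CHR element and CCAAT boxes. Cardiomyocyte cultures made from stem cells can also hold endothelial, fibroblast, smooth muscle and other cells, and in bulk RNA fewer cells of a type and less RNA per cell cannot be told apart. The cardiomyocyte markers checked were abundant on every day. The summed level of 15 such genes was 34400 to 46200 CPM at Day 30. It was 43400 to 49300 CPM at Day 60 and 37000 to 40900 at Day 113. Of the 15, 3 were called higher, a larger share than the 4.38% over all genes, and 0 were called lower. The median contrast of the 15 was 0.19, and 1 of them was a peak.

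Mitotic genes were higher at Day 60. Of 24 mitosis genes, 21 were called higher (87.5%, against 4.38% of all genes), 0 were called lower and 17 were peaks, with a median contrast of 0.83. The other 3 were FOXM1, the transcription factor of the mitotic programme (contrast 0.52 ± 0.17, adjusted p = 0.0723), the kinesin KIF23 (0.57 ± 0.18, adjusted p = 0.0564) and the kinase AURKB (0.73 ± 0.23, adjusted p = 0.0575). All 3 passed under DESeq2 and under upper-quartile scaling, each of which called 24. Dropping replicate 1 of Day 60 gave 12 mitosis calls, and dropping replicate 3 gave 13. TOP2A, the topoisomerase that untangles chromosomes before they separate, measured 168, 185, 152 and 176 CPM in the Day 30 wells, 391, 264 and 374 in the Day 60 wells and 189, 86.2, 98.6 and 173 in the Day 113 wells. Every Day 60 well was above every other well, and the contrast was 1.17 ± 0.19 (adjusted p = 0.00158). For CDC20, the activator of the anaphase-promoting complex, the wells gave 20.8, 24.4, 18.8 and 22.1 CPM at Day 30, 41.8, 29.7 and 31.9 at Day 60 and 14.5, 6.64, 7.07 and 9.75 at Day 113 (contrast 1.27 ± 0.19, adjusted p = 0.000986). The Day 60 mean of CDC20 was 1.6-fold that of Day 30 and 3.63-fold that of Day 113.

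Cyclins and their kinase followed the same order of days. CCNB1, cyclin B1, was at 77.4, 56 and 65.2 CPM at Day 60 against 38.1 to 52.2 at Day 30 and 15.1 to 31.5 at Day 113 (contrast 1.08 ± 0.17, adjusted p = 0.00131). CCNA2, cyclin A2, had 95.8, 64.9 and 87 CPM at Day 60 against 40.5 to 53.2 and 21.3 to 43.2 (1.11 ± 0.17, adjusted p = 0.00108). CDK1, the kinase both cyclins activate, had 75.9, 54.5 and 74.7 CPM against 31.5 to 45.8 and 24.8 to 42.7 (0.90 ± 0.15, adjusted p = 0.00186). PLK1, a kinase of mitotic entry, was called (1.05 ± 0.19, adjusted p = 0.00378) but was no peak, since its lowest Day 60 well, at 32.5 CPM, fell below the highest Day 30 well, at 37.1 CPM. KIF20A, a kinesin of the cleavage furrow, was a peak at 123, 83.4 and 102 CPM against 47.7 to 66.9 and 13.3 to 53.4 (1.34 ± 0.29, adjusted p = 0.00951), and its adjusted p was 0.069 without Day 60 replicate 1 and 0.066 with robust dispersions. Replicate 1 was the highest Day 60 well for TOP2A, CDC20, CCNB1, CCNA2, CDK1, PLK1 and KIF20A alike.

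DNA replication genes were not among the peaks. Of 27, 11 were called lower (40.7%, against 4.97% of all genes), 0 were called higher and 0 were troughs, with a median contrast of -0.46. The median log2 difference was -0.02 from Day 30 and -0.86 from Day 113, so Day 60 lay near Day 30 and below Day 113. MCM5, a subunit of the replicative helicase, measured 17.1, 20.9, 22.5 and 19.4 CPM at Day 30, 16.1, 17.7 and 20.3 at Day 60 and 39.3, 44.4, 35.5 and 34 at Day 113 (contrast -0.62 ± 0.13, adjusted p = 0.00706). MCM3, another helicase subunit, had 58.3 to 67.4 CPM at Day 30, 53.6, 65.3 and 49.9 at Day 60 and 85.9 to 105 at Day 113 (-0.46 ± 0.10, adjusted p = 0.0102). CDC6, which loads the helicase, had 4.97 to 9.55, then 6, 5.86 and 5.87, then 12.8 to 17.9 CPM (-0.85 ± 0.20, adjusted p = 0.0155). These calls are sensitive to single wells. Dropping replicate 1 of Day 60 gave 0 DNA replication calls, dropping replicate 3 gave 1, and dropping replicate 2 of Day 30 gave 6. Weighting the other days by linear interpolation in days gave 4. MCM5 had an adjusted p of 0.063 without Day 60 replicate 1, MCM3 of 0.077 without replicate 1 and 0.083 without replicate 3, and CDC6 of 0.076, 0.052 and 0.076 without replicates 1, 2 and 3.

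Clustered histone genes, whose mRNAs normally lack a poly(A) tail, had 3 of 29 called higher (10.3%, against 4.38% of all genes) and 0 lower. Their median contrast was 0.63, with 1 called after dropping replicate 1 of Day 60 and 1 with interpolation weights. Their median difference was -0.29 from Day 30 and 1.28 from Day 113. Markers of other cell types moved beside the mitotic genes: the summed level of 22 fibroblast and epicardial markers was 3500 to 6900 CPM at Day 30, 2860 to 3900 at Day 60 and 5070 to 11400 at Day 113. Their part in the result was not tested.

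**Figure D2:**
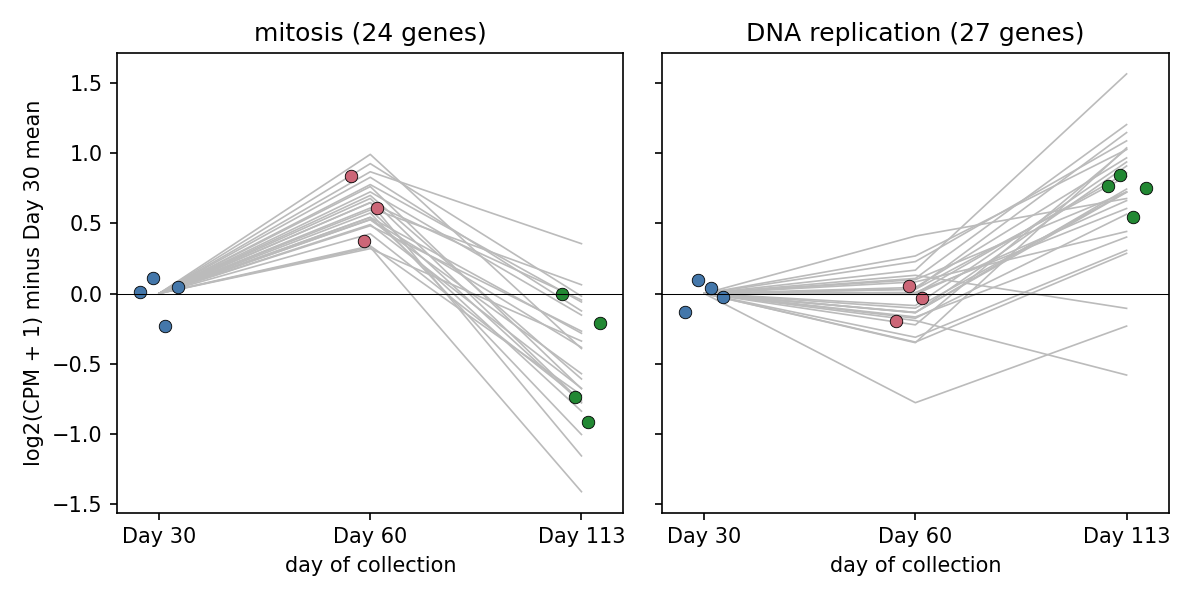
Each gray line is 1 gene's day mean of log2(CPM + 1) after subtracting its Day 30 mean, and each point is the median over the list in 1 well, colored by day. In the left panel (24 mitosis genes) all 3 Day 60 wells sit above all other wells. In the right panel (27 DNA replication genes) the Day 60 wells overlap the Day 30 wells and the Day 113 wells sit above both.

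The promoters of these genes were searched for the sequence elements that background knowledge ties to each arm. The sequences are from RefSeq (GRCh38.p14), 250 bases before to 30 after the annotated start, 5′ to 3′ on the gene's strand. They were chosen as the mitosis genes with the highest contrast, and the replication genes with the lowest, among the genes named here that have a promoter in the table. In the 4 mitotic promoters, capitals mark CHR elements (TTTGAA) and CCAAT boxes (CCAAT), each on either strand.
CDC20 (chr1:43358731-43359010, + strand): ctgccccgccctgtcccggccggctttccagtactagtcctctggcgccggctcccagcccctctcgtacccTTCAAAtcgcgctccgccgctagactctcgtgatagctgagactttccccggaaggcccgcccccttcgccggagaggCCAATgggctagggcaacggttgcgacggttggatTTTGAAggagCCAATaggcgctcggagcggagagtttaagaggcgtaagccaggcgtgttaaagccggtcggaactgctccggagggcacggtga
TOP2A (chr17:40417867-40418146, - strand): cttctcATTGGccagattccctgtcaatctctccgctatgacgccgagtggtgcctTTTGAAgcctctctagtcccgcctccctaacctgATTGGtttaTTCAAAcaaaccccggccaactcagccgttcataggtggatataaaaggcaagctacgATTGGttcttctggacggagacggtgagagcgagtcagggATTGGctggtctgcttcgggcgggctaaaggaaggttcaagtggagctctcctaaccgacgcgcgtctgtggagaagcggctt
CCNA2 (chr4:121823854-121824133, - strand): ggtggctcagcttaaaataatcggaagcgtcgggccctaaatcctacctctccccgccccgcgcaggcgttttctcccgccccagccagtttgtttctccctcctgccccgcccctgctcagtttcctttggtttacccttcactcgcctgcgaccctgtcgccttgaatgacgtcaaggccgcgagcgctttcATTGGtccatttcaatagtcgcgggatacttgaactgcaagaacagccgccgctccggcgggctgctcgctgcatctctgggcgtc
CCNB1 (chr5:69166900-69167179, + strand): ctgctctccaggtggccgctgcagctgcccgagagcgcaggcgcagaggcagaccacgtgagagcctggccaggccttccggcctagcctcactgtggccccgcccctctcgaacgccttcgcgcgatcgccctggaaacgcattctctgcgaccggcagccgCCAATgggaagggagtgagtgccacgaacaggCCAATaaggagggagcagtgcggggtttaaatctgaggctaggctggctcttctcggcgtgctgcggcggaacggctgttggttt
In the 2 replication promoters, capitals mark matches to 2 forms of the E2F site, TTGGCGC and TTCCCGC, on either strand. Other forms of the site are not marked, so the lower-case letters may hold further E2F-like sequence. Both promoters also hold CCAAT boxes, which are left in lower case here.
CDC6 (chr17:40287629-40287908, + strand): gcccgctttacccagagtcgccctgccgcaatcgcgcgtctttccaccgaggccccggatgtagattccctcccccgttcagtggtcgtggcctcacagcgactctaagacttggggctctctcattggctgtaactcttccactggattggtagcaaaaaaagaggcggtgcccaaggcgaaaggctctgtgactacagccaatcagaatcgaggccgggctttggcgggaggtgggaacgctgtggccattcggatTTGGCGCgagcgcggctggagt
MCM3 (chr6:52284713-52284992, - strand): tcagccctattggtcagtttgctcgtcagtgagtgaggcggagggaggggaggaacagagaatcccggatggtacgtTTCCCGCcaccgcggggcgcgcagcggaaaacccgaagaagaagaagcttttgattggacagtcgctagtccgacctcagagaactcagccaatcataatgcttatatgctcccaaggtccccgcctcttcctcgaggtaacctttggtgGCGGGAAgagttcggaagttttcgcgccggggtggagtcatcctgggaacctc
A CHR match was present in 13 of 19 mitosis promoters found in the table (68.4%), 0 of 23 DNA replication promoters and 10.5% of the 14128 promoters of genes tested. An E2F match was present in 2 of 19 mitosis promoters (10.5%), 17 of 23 DNA replication promoters (73.9%) and 12.5% of all those tested. CCAAT was found in 15 of 19 mitosis promoters (78.9%), 15 of 23 DNA replication promoters (65.2%) and 34.8% of all those tested. Where CCNA2 and CCNB1 show no CHR, these exact letters are not in this window, which is a description of the letters and no measure of binding.

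Peaks were ranked by the smaller of their folds over Day 30 and over Day 113, and lens genes stood near the top. Of 33 lens and retina genes tested, 17 were called higher (51.5%, against 4.38% of all genes), 0 were called lower and 5 were peaks. The median contrast was 1.91, and the median difference was 3.46 from Day 30 and 1.34 from Day 113. The list summed to 436 to 528 CPM at Day 30, 1080 to 1880 at Day 60 and 910 to 1500 at Day 113. Day 60 and Day 113 thus overlapped in the sum, and both were above Day 30. The list also holds CRYAB, which is counted among the heat shock proteins too. The other crystallins named here each reached at most 1.45 CPM at Day 30 and 37.6 CPM at Day 113. On those days other members made up most of the sum, which is therefore no measure of these crystallins. CRYBB3, a beta-crystallin of the lens, was at 0.634 to 1.45 CPM at Day 30, at 4.5, 33.8 and 13 at Day 60 and at 0.577, 3, 0.314 and 1.24 at Day 113 (contrast 3.87 ± 0.52, adjusted p = 0.000641). LIM2, a lens fibre membrane protein, had 0.2 CPM in 1 Day 30 well and 0 in the other 3, then 2.04, 13.3 and 4.86 at Day 60, then 0.115, 1.72, 0 and 0.602 at Day 113 (adjusted p = 0.00216). CRYBA2 had no count at Day 30, then 5.49, 24 and 12.6 CPM at Day 60, then 0.0577, 4.8, 0.285 and 0.401 (adjusted p = 0.00158), at least 135-fold above Day 30, taking the floor of 3 counts per library, and 10.1-fold above Day 113.

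In CRYBB3, LIM2 and CRYBA2 Day 60 replicate 2 was the highest of all wells, and Day 113 replicate 2 the highest of its day. Without Day 60 replicate 2 the contrast was 2.9 for CRYBB3, 4.24 for LIM2 and 6.9 for CRYBA2 (7.53 with it), with adjusted p-values of 0.0072, 0.028 and 0.0077. Without Day 113 replicate 2 it was 5.91 for LIM2 and 8.78 for CRYBA2. Leaving out the 1 Day 30 well with LIM2 counts, replicate 2, gave 7.08 for LIM2. Fitted values of genes with a day at or near 0 depend on the fit's prior count and are not bounds.

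Other crystallins were called but were not peaks, because Day 113 replicate 2 reached into the Day 60 range. CRYBB1 had 0, 0.334, 0.79 and 0 CPM at Day 30, 23.8, 216 and 99 at Day 60 and 2.94, 37.6, 0.685 and 2.69 at Day 113 (adjusted p = 0.000986, contrast 5.98, and 5.1, 7.17 or 6.62 after dropping replicate 2 of Day 60, replicate 2 of Day 113 or replicate 3 of Day 30). CRYBA1 had at most 0.191 CPM at Day 30, then 17.6, 139 and 50.2, then 0.895, 20.5, 0.998 and 2.25 (adjusted p = 0.000549, contrast 6.54, and 5.5 and 7.63 without replicate 2 of Day 60 and of Day 113). CRYAA, alpha-A crystallin, had 0.197 CPM in 1 Day 30 well, then 4.24, 66.6 and 24.9, then 0.26, 9.64, 0 and 0.12 (adjusted p = 0.00224, contrast 6.43, and 5.3, 8.54 or 8.29 after dropping the same wells in turn). Under limma-voom the adjusted p was 0.083 for CRYBB1, 0.073 for CRYBA1 and 0.094 for CRYAA. Transcription factors of the same list were less separated by day: PAX6, a regulator of eye development, had 1.13 to 14.2 CPM at Day 30, 19.3, 44.9 and 48.7 at Day 60 and 1.41 to 23.7 at Day 113 (contrast 1.81 ± 0.61, adjusted p = 0.0733), and MITF had a contrast of -0.08 ± 0.12.

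Outside the lens list, the ranking named DRD1, NFASC and DCC, and KIF1A was among the abundant peaks. DRD1, the D1 dopamine receptor (chr5:175440036-175444182), was at 5.96, 4.57, 5.56 and 5.26 CPM at Day 30, 15.4, 14.9 and 19.7 at Day 60 and 3.23, 3.19, 7.16 and 4.33 at Day 113. The lowest Day 60 well was over 2-fold the highest of the others, and the contrast was 1.76 ± 0.21 (adjusted p = 0.00036). NFASC, the axonal adhesion protein neurofascin, had 3.95 to 5.69, then 29, 13.6 and 16.3, then 4.09 to 10 CPM (1.72 ± 0.24, adjusted p = 0.000801). DCC, the netrin receptor, had 0.481 to 2.64, then 4.53, 10.6 and 13.2, then 0.112 to 2.33 CPM (3.11 ± 0.60, adjusted p = 0.00492), and 3.74 without Day 113 replicate 4. KIF1A, a motor of axonal transport, had 39.3 to 55.9, then 97.4, 103 and 99.7, then 34.3 to 56.4 CPM (1.17 ± 0.13, adjusted p = 0.000226). The list of 28 neuronal and synaptic genes had 5 called higher (17.9%, against 4.38% of all genes), 0 lower and 2 peaks. Its median contrast was 0.51, and dropping replicate 1, 2 or 3 of Day 60 gave 2, 2 and 1 calls. Among its called genes GAD1, which makes the transmitter GABA, had 5.65, 4.97 and 5.93 CPM at Day 60, against 2.61 to 5.14 at Day 30 and 0.712 to 1.48 at Day 113 (1.40 ± 0.28, adjusted p = 0.00688).

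The remaining peaks of the ranking were of mixed kinds. LINC01474, a long noncoding RNA, had 0.0382 and 0.0334 CPM in 2 Day 30 wells and 0 in the others, 3.86, 5.67 and 6.88 at Day 60 and 0.26, 0.487, 0.742 and 1.2 at Day 113 (adjusted p = 2.54e-05), with a Day 60 mean 8.13-fold that of Day 113. UNC5B-AS1, an antisense RNA, had 10.9 to 20.4, then 62.9, 32.5 and 32.3, then 2.05 to 4.59 CPM (contrast 2.53 ± 0.23, adjusted p = 2.54e-05). PKD1L2, annotated as a transcribed pseudogene, had 1.96 to 3.16, then 8.49, 4.94 and 10.8, then 0.975 to 3.28 CPM (1.75 ± 0.32, adjusted p = 0.00338). TGFA, a ligand of the EGF receptor, had 1.68 to 3.7, then 13.4, 4.94 and 4.54, then 0.884 to 1.89 CPM (2.17 ± 0.35, adjusted p = 0.00158), and its contrast was 1.49 (adjusted p = 0.041) without Day 60 replicate 1. FOXN4, a transcription factor of retinal and spinal progenitors, had 0.721 to 1.9, then 2.65, 4.42 and 8.9, then 0.664 to 1.74 CPM (1.95 ± 0.38, adjusted p = 0.00542). Its contrast was 1.37 (adjusted p = 0.089) without Day 60 replicate 3.

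MYH7B, a slow myosin heavy chain gene of heart and skeletal muscle (chr20:34955868-35002437), measured 290, 192, 197 and 242 CPM at Day 30, 542, 499 and 491 at Day 60 and 229, 216, 207 and 210 at Day 113. Its Day 60 mean was 2.22-fold that of Day 30 and 2.37-fold that of Day 113 (contrast 1.20 ± 0.11, adjusted p = 2.54e-05). FHL2, a LIM-domain protein of the sarcomere, had 1055 to 1130, then 2625, 1899 and 2510, then 1007 to 1683 CPM (0.91 ± 0.13, adjusted p = 0.000986). CSRP3, muscle LIM protein, had 730 to 886, then 1137, 1020 and 1134, then 485 to 723 CPM (0.62 ± 0.11, adjusted p = 0.00211). COX6A2, the heart and muscle form of a cytochrome c oxidase subunit, had 11.9 to 14.8, then 28.7, 29.4 and 24.9, then 11.3 to 18.6 CPM (1.04 ± 0.14, adjusted p = 0.000776). LBH, a transcriptional regulator of heart and limb development, had 1176 to 1298, then 2033, 1686 and 1987, then 903 to 1265 CPM (0.71 ± 0.10, adjusted p = 0.000776). Of 26 sarcomere genes as a list, 2 were called higher (7.69%, against 4.38% of all genes), 1 lower (3.85%, against 4.97%) and 1 was a peak, with a median contrast of 0.11. COX6A2 belongs to a list of 66 nuclear-encoded oxidative phosphorylation genes, with 2 called higher (3.03%), 0 lower and a median of 0.06. FHL2 belongs to 16 cardiac load and injury markers, with 3 called higher (18.8%), 1 lower (6.25%) and a median of -0.15. LBH belongs to 11 ventricular genes, with 3 called higher (27.3%), 1 lower (9.09%) and a median of 0.13.

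Of 18 fast skeletal muscle genes, 4 were called higher (22.2%, against 4.38% of all genes), 0 lower and 0 were peaks, and dropping replicate 1 or replicate 2 of Day 60 gave 2. ACTN3, the fast-fibre alpha-actinin, overlapped Day 30: it had 13.2, 8.04, 5.2 and 9.41 CPM at Day 30, 9.48, 9.73 and 8.11 at Day 60 and 0.45 to 0.628 at Day 113, and its contrast was 2.05 ± 0.23 (adjusted p = 0.000226). CKM, muscle creatine kinase, had 242 to 330, then 682, 472 and 497, then 389 to 517 CPM (0.65 ± 0.12, adjusted p = 0.00451, and 0.052 without Day 60 replicate 1). Other abundant peaks were MGLL, the monoacylglycerol lipase, at 78.9 to 110, then 209, 192 and 171, then 84.8 to 122 CPM (0.97 ± 0.11, adjusted p = 0.000226), and ADD2, the cytoskeletal protein beta-adducin, at 68 to 86.5, then 139, 123 and 122, then 44.3 to 47.2 CPM (1.14 ± 0.08, adjusted p = 9.88e-06). RNF144A, a ubiquitin ligase, had 47.9 to 63.9, then 152, 116 and 140, then 54.1 to 70.1 CPM (1.18 ± 0.11, adjusted p = 2.54e-05).

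Of 19 circadian clock genes, 8 were called higher (42.1%, against 4.38% of all genes), 0 lower and 2 were peaks, with a median contrast of 0.40, and dropping replicate 1 of Day 60 gave 5 calls. DBP, a clock-output transcription factor, had 18.5, 17.2, 17.9 and 18.2 CPM at Day 30, 28, 23.3 and 21.3 at Day 60 and 5.74, 8.59, 10.4 and 6.86 at Day 113 (1.02 ± 0.15, adjusted p = 0.00104). CRY2, a clock repressor, had 120 to 142, then 174, 166 and 177, then 109 to 117 CPM (0.49 ± 0.08, adjusted p = 0.00135). PER3, another repressor, overlapped Day 113 by 1 well, with 77.2, 67 and 87.5 CPM at Day 60 against 49.3 to 70 (0.68 ± 0.11, adjusted p = 0.00135). ARNTL, whose protein drives the E-box genes of the clock, had a contrast of -0.26 ± 0.19 (adjusted p = 0.449). The hour of collection is not given in the labels, and its part in these values was not tested.

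Of 24 hypoxia-inducible genes, 8 were called higher (33.3%, against 4.38% of all genes), 0 lower and 1 was a peak. The median contrast was 0.37, with a median log2 difference of 0.13 from Day 30 and 0.3 from Day 113. Dropping replicate 1 of Day 60 gave 2 calls. Weights by linear interpolation gave 5. The peak was BNIP3, a mitophagy receptor, at 498 to 648, then 900, 679 and 752, then 439 to 505 CPM (0.56 ± 0.10, adjusted p = 0.00319). NDRG1 had 127 to 167 CPM at Day 30, 192, 163 and 142 at Day 60 and 41 to 80.7 at Day 113 (0.86 ± 0.15, adjusted p = 0.00318), so its call rests on the low Day 113 wells. Of 25 glycolysis and glucose uptake genes, 6 were called higher (24.0%, against 4.38%), 0 lower and 2 were peaks. Their median was 0.22, with a median log2 difference of 0.1 from Day 30 and 0.34 from Day 113. The list summed to 24700 to 28300 CPM at Day 30, 27000 to 31800 at Day 60 and 18600 to 23900 at Day 113. Day 60 thus overlapped Day 30 in the sum, and both were above Day 113. Dropping replicate 1 of Day 60 gave 1 call. DESeq2 called 10 of them higher, and a correction for gene length and GC content gave 13. PFKFB2, which sets the level of the allosteric activator of glycolysis, was a peak at 16 to 20.9, then 29.8, 24.5 and 30.5, then 13.4 to 20.6 CPM (0.65 ± 0.13, adjusted p = 0.00712). ENO1, the enolase of most tissues, was the other, at 3167 to 3806, then 4497, 3947 and 4020, then 1926 to 2665 CPM (0.52 ± 0.11, adjusted p = 0.00808, and 0.057 without Day 60 replicate 1). ENO2, the enolase enriched in neurons and outside that list, had 249 to 341, then 657, 462 and 443, then 199 to 262 CPM (0.96 ± 0.12, adjusted p = 0.000539). Of 24 cholesterol synthesis genes, 5 were called higher (20.8%, against 4.38%), 0 lower and 2 were peaks. Their median was 0.15, and dropping replicate 1 or 3 of Day 60 gave 0 and 2 higher calls. RNR2, the mitochondrial 16S rRNA, took 2.69 to 3.59% of counts at Day 60 and 1.81 to 2.25% on the other days (contrast 0.62 ± 0.10, adjusted p = 0.00192, and 0.091 with limma-trend).

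**Figure D3:**
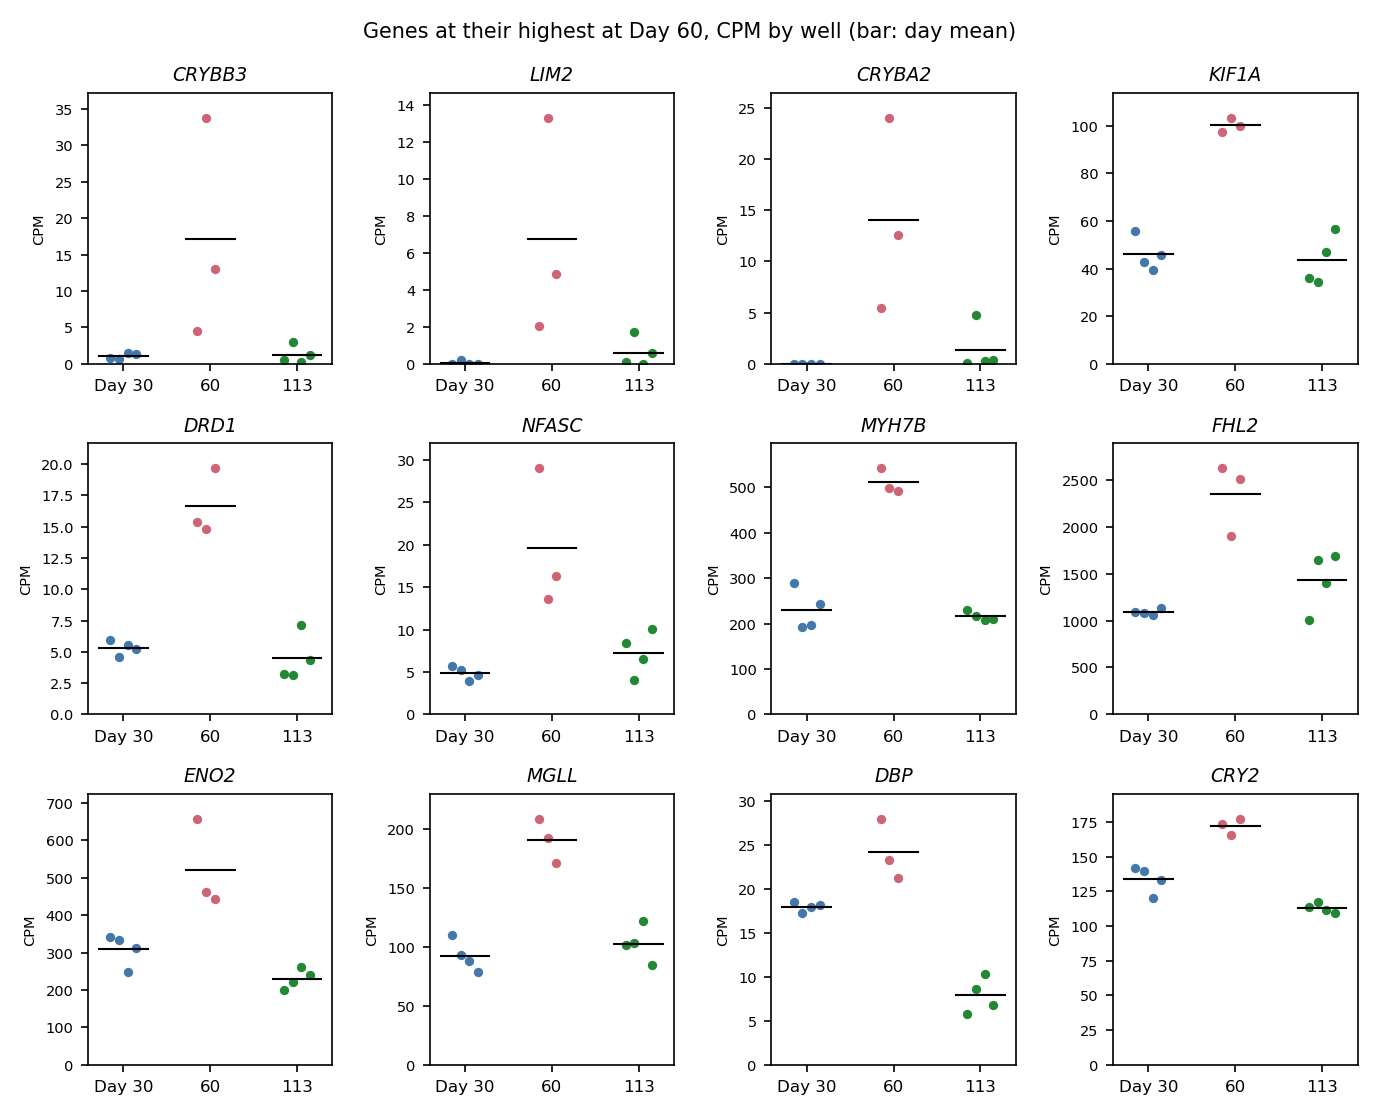
CPM of 12 peak genes in each well (points, colored by day) with the day mean (bar), on a linear axis from 0. All 3 Day 60 wells lie above the other 8 in each panel. The 3 lens genes in the top row spread widely among the Day 60 wells, with replicate 2 highest, while MYH7B spans 491 to 542 CPM at Day 60.

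Of 25 endothelial markers, 17 were called lower (68.0%, against 4.97% of all genes), 0 higher and 8 were troughs, with a median contrast of -1.78. The summed level of the 25 was 204 to 292 CPM at Day 30, 121 to 217 at Day 60 and 414 to 1390 at Day 113, so the Day 60 range overlapped the Day 30 range and Day 113 was higher. Dropping replicate 3 of Day 60 gave 11 calls, and limma-voom made 9. ESAM, an endothelial adhesion molecule, had 6.65, 7.81, 5.43 and 2.37 CPM at Day 30, 0.702, 2.21 and 0.315 at Day 60 and 46.7, 34.7, 27.7 and 16 at Day 113 (contrast -3.65 ± 0.52, adjusted p = 0.000896, and -4.69 without Day 60 replicate 2). PLVAP, the protein of endothelial diaphragms, had 18.1, 16.4, 14 and 9.14 CPM, then 2.62, 4.86 and 3.97, then 23.2, 16.6, 13.8 and 9.31 (-1.98 ± 0.29, adjusted p = 0.00101). The Day 30 and Day 113 wells of PLVAP covered nearly the same range, and their means were 3.78-fold and 4.12-fold that of Day 60.

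SOX7, an endothelial transcription factor, had 3.02, 8.74, 7.08 and 2.1 CPM at Day 30, 0.798, 0.7 and 0.757 at Day 60 and 28.9, 10.3, 7.62 and 3.09 at Day 113 (-3.42 ± 0.65, adjusted p = 0.00452). Under limma-voom its adjusted p was 0.14, and an exon of SOX7 overlaps PINX1 on the same strand. FLT1, a VEGF receptor, had 41.6 to 67.9, then 25.1, 30.4 and 18.7, then 43.6 to 101 CPM (-1.37 ± 0.25, adjusted p = 0.00373). EGFL7, a secreted vascular protein, had 21 to 27.8, then 13, 14.3 and 9.68, then 29.1 to 58.9 CPM (-1.53 ± 0.20, adjusted p = 0.00059). PECAM1 and CDH5, junction proteins that define endothelium, were called without being troughs. PECAM1 had 10 to 19.3 CPM at Day 30, 8.71, 13.4 and 10.3 at Day 60 and 84.5 to 347 at Day 113 (-2.35 ± 0.35, adjusted p = 0.00104). CDH5 had 9.65 to 21.2, then 7.24, 11.3 and 4.95, then 37.6 to 155 CPM (-2.20 ± 0.40, adjusted p = 0.00346). PDGFB, a growth factor of vessel walls, had 11.1 to 15.2, then 2.49, 8.37 and 1.55, then 18.6 to 45.7 CPM (-2.34 ± 0.40, adjusted p = 0.00244, and -3.35 without Day 60 replicate 2).

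Of 41 genes for matrix glycoproteins and remodelling, 18 were called lower (43.9%, against 4.97% of all genes), 0 higher and 10 were troughs, with a median contrast of -0.71, and dropping replicate 3 of Day 60 gave 7. FN1, fibronectin (chr2:215360865-215436068), had 5234, 10350, 8855 and 3530 CPM at Day 30, 749, 591 and 535 at Day 60 and 3099, 819, 1786 and 985 at Day 113. The Day 30 mean was 11.2-fold and the Day 113 mean 2.67-fold that of Day 60, although the highest Day 60 well and the lowest Day 113 well were close (-2.45 ± 0.40, adjusted p = 0.00178). LAMB1, a laminin chain of basement membranes, had 346 to 425, then 136, 166 and 104, then 180 to 393 CPM (-1.27 ± 0.20, adjusted p = 0.00126). SPARC, a collagen-binding protein, had 617 to 1413, then 480, 516 and 371, then 741 to 1618 CPM (-1.26 ± 0.25, adjusted p = 0.00658, and 0.056 without Day 60 replicate 3). SULF2, which edits heparan sulfate outside the cell, had 20.7 to 54.7, then 8.59, 12.6 and 6.5, then 25 to 76.9 CPM (-2.23 ± 0.36, adjusted p = 0.00158). MMP14, a membrane-bound matrix protease, had 95.8 to 179, then 80.1, 93.5 and 49.5, then 123 to 193 CPM (-1.02 ± 0.20, adjusted p = 0.00603).

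Of 37 collagens, 8 were called lower (21.6%, against 4.97% of all genes), 2 higher (5.41%, against 4.38%) and 3 were troughs. Their median was -0.30, and 14 had a contrast above 0. Dropping replicate 1 of Day 60 gave 4 lower calls and dropping replicate 3 gave 2, robust dispersions gave 4, and DESeq2 gave 12. With 1 well left out, higher calls ran from 0, on dropping replicate 2 or 3 of Day 60, to 5, on dropping replicate 4 of Day 113. There was 1 on dropping replicate 1 of Day 30, 2 of Day 30, 1 of Day 60 or 3 of Day 113. A correction for gene length and GC content gave 6 higher calls. COL12A1 had 87 to 260, then 55.4, 61.3 and 65.9, then 165 to 369 CPM (-1.70 ± 0.31, adjusted p = 0.00346). COL1A1, the main chain of fibrillar collagen, had 1031 to 2284, then 1004, 856 and 560, then 1691 to 4576 CPM (-1.50 ± 0.31, adjusted p = 0.00741, and 0.062 without Day 60 replicate 3). Of 20 YAP and mechanical targets, 6 were called lower (30.0%, against 4.97%), 0 higher and 4 were troughs. Their median was -0.31, and dropping replicate 3 of Day 60 gave 3 calls. ANKRD1, a titin-associated protein that responds to stretch, had 603, 555, 438 and 702 CPM at Day 30, 242, 351 and 274 at Day 60 and 670, 625, 752 and 465 at Day 113 (-1.05 ± 0.16, adjusted p = 0.00131), with no overlap between Day 60 and either day. IGFBP3, a carrier of insulin-like growth factors, had 243 to 830, then 182, 223 and 151, then 301 to 676 CPM (-1.47 ± 0.32, adjusted p = 0.011). Its adjusted p was 0.064 without Day 60 replicate 1, 0.078 without replicate 3 and 0.072 with robust dispersions. TAGLN2, an actin-binding protein, had 32 to 70.7, then 12.5, 12.3 and 7.76, then 26.6 to 71.4 CPM (-2.23 ± 0.29, adjusted p = 0.00059).

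Markers of other cell types are given beside these matrix and vascular troughs. The 22 fibroblast and epicardial markers, given above, had 5 called lower (22.7%) and 2 higher (9.09%). Over all genes the shares were 4.97% lower and 4.38% higher. The 17 smooth muscle markers summed to 1700 to 2100 CPM at Day 30, 1790 to 2080 at Day 60 and 2420 to 3320 at Day 113. Among them 5 were called lower (29.4%) and 2 higher (11.8%). The 8 haematopoietic and macrophage markers that could be tested summed to 18.3 to 33.2, 8.23 to 12.2 and 27 to 104 CPM on the 3 days, with 2 called lower, 0 higher and 1 trough. The 30 liver and endoderm markers had 13 called lower (43.3%), 1 higher (3.33%) and 0 troughs, with a median contrast of -2.12. They summed to 1070 to 2220 CPM at Day 30, 463 to 491 at Day 60 and 273 to 391 at Day 113. The 26 epithelial markers had 9 called lower (34.6%), 1 higher (3.85%) and 2 troughs, with a median of -0.68. They summed to 2500 to 3740, 1400 to 1610 and 1270 to 2090 CPM. The part of these cells in the troughs was not tested.

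The integrated stress response is the programme in which the factor ATF4 raises, among others, genes of amino acid uptake and synthesis. Of 26 genes of this list, 11 were called lower (42.3%, against 4.97% of all genes), 0 higher and 8 were troughs. Their median contrast was -0.33, and dropping replicate 3 of Day 60 gave 7 lower and 1 higher. SLC7A5, a transporter of large neutral amino acids (chr16:87830023-87869507), had 66.5, 139, 113 and 59.8 CPM at Day 30, 16.6, 13 and 8.96 at Day 60 and 54.4, 37.5, 42.1 and 29.6 at Day 113. The highest Day 60 well was below every other well, and the Day 30 and Day 113 means were 7.36-fold and 3.18-fold that of Day 60 (-2.28 ± 0.28, adjusted p = 0.000394). PHGDH, the first enzyme of serine synthesis, had 73.8 to 99.4, then 62, 61.5 and 43.2, then 81.6 to 129 CPM (-0.83 ± 0.15, adjusted p = 0.00299). MTHFD2, a mitochondrial folate enzyme, had 39.7 to 55, then 27, 29.4 and 25.6, then 43.2 to 66.6 CPM (-0.85 ± 0.14, adjusted p = 0.00194). ALDH1L2, another, had 5.35 to 11.9, then 4.82, 3.02 and 2.87, then 11.1 to 30.5 CPM (-1.86 ± 0.33, adjusted p = 0.00291). PCK2, the mitochondrial PEP carboxykinase, had 12.3 to 17.7, then 5.84, 5.01 and 9.02, then 12.8 to 16.7 CPM (-1.14 ± 0.19, adjusted p = 0.00217).

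The transcription factor ATF5 had 11 to 11.8, then 6.86, 9.47 and 6.81, then 17.5 to 24.6 CPM (-0.98 ± 0.16, adjusted p = 0.00154). TRIB3, a pseudokinase target of ATF4, was called but was no trough, with 6.39 to 9.77, then 6.77, 3.94 and 5.17, then 26.6 to 57.7 CPM (-1.73 ± 0.24, adjusted p = 0.000776). The ATF4 mRNA itself, whose output is set mainly by translation, had 136 to 166, then 144, 139 and 119, then 138 to 178 CPM (-0.21 ± 0.10, adjusted p = 0.221). The median contrast of 23 unfolded protein response genes was -0.23. Among them 8 were called lower (34.8%, against 4.97% of all genes), 0 higher and 2 were troughs. The number was 1 on dropping replicate 1 of Day 60, 1 on dropping replicate 3, 4 on dropping replicate 2 of Day 30, and 5 with interpolation weights. HSPA5, its main chaperone, had a contrast of -0.18 ± 0.11 (adjusted p = 0.343).

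Of 20 inflammatory cytokines and NF-kB targets, 6 were called lower (30.0%, against 4.97% of all genes), 0 higher and 5 were troughs. Their median contrast was -0.81, and dropping replicate 3 of Day 60 gave 3 calls. PTGS2, cyclooxygenase 2, had 2.83, 3.7, 2.17 and 2.1 CPM at Day 30, 0.287, 0.405 and 0.315 at Day 60 and 2.86, 1.24, 4.31 and 1.36 at Day 113 (-2.93 ± 0.50, adjusted p = 0.00224). The highest Day 60 well, at 0.405 CPM, compared with 1.24 CPM in the lowest other well. VCAM1, a leukocyte adhesion molecule also made by the epicardium, had 263, 259, 272 and 306, then 89.3, 74.1 and 107, then 237, 161, 145 and 166 CPM (-1.29 ± 0.15, adjusted p = 0.000226). IL32, a cytokine, had 4.53 to 8.74, then 1.05, 3.57 and 2.27, then 7.02 to 18.6 CPM (-2.08 ± 0.37, adjusted p = 0.00299). The 36 interferon-stimulated genes had 6 called lower (16.7%, against 4.97%), 0 higher and 1 trough. Their median difference was 0.11 from Day 30 and -1.32 from Day 113. Single wells moved these calls widely: dropping replicate 1 or 3 of Day 60 gave 1, dropping replicate 2 or 3 of Day 30 or replicate 3 of Day 113 gave 2, and dropping replicate 4 of Day 113 gave 10. DESeq2 called 10 lower, limma-voom 2, and weights by linear interpolation in days gave 3.

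Other troughs of the ranking encode receptors, channels and enzymes. CHST15, a chondroitin sulfotransferase, had 6.8 to 15, then 1.21, 4.13 and 2.71, then 10.8 to 35 CPM (-2.51 ± 0.41, adjusted p = 0.00169). PCDH1, a protocadherin, had 3.61 to 9.21, then 1.69, 1.99 and 1.96, then 11.3 to 44.3 CPM (-2.77 ± 0.41, adjusted p = 0.000986). QPCT, glutaminyl cyclase, had 4.67 to 8.64, then 0.702, 2.51 and 1.48, then 2.77 to 7.19 CPM (-1.98 ± 0.39, adjusted p = 0.00555). P2RY6, a receptor for UDP, had 5.81 to 18.3, then 1.28, 4.42 and 1.7, then 8.87 to 13.6 CPM (-2.21 ± 0.43, adjusted p = 0.00513, and -2.93 without Day 60 replicate 2). KCNG1, a modifier of voltage-gated potassium channels, had 9.1 to 22.8, then 1.82, 3.02 and 0.789, then 4.17 to 15.2 CPM (-2.49 ± 0.49, adjusted p = 0.00534). KCNJ2, the inward rectifier that sets the resting potential of cardiomyocytes, had 4.05, 6.4, 7.14 and 2.99 CPM, then 1.21, 1.84 and 1.23, then 6.41, 10.1, 5.42 and 2.17 (-1.96 ± 0.42, adjusted p = 0.00954). For KCNJ2 the adjusted p was 0.063 when replicate 1 of Day 60 was dropped, 0.058 when replicate 3 was dropped and 0.054 under limma-voom, and its exons overlap KCNJ2-AS1 on the opposite strand.

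**Figure D4:**
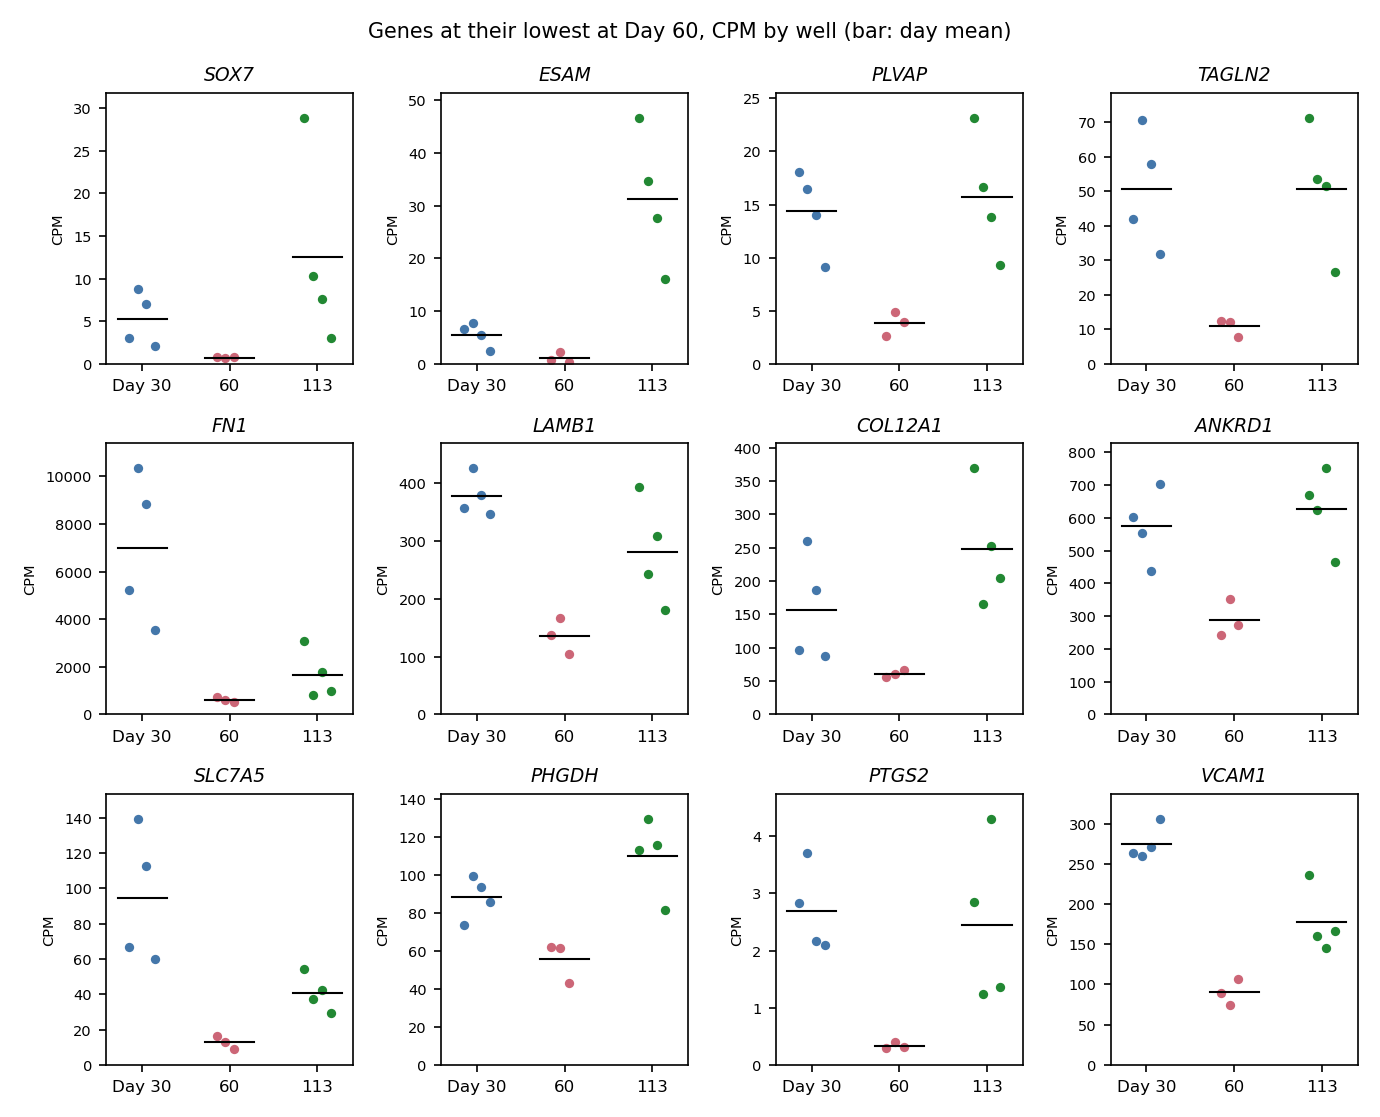
CPM of 12 trough genes in each well (points, colored by day) with the day mean (bar), on a linear axis from 0. All 3 Day 60 wells lie below the other 8 in each panel, among them SLC7A5 at 8.96 to 16.6 CPM against 29.6 to 139.

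**Figure D5:**
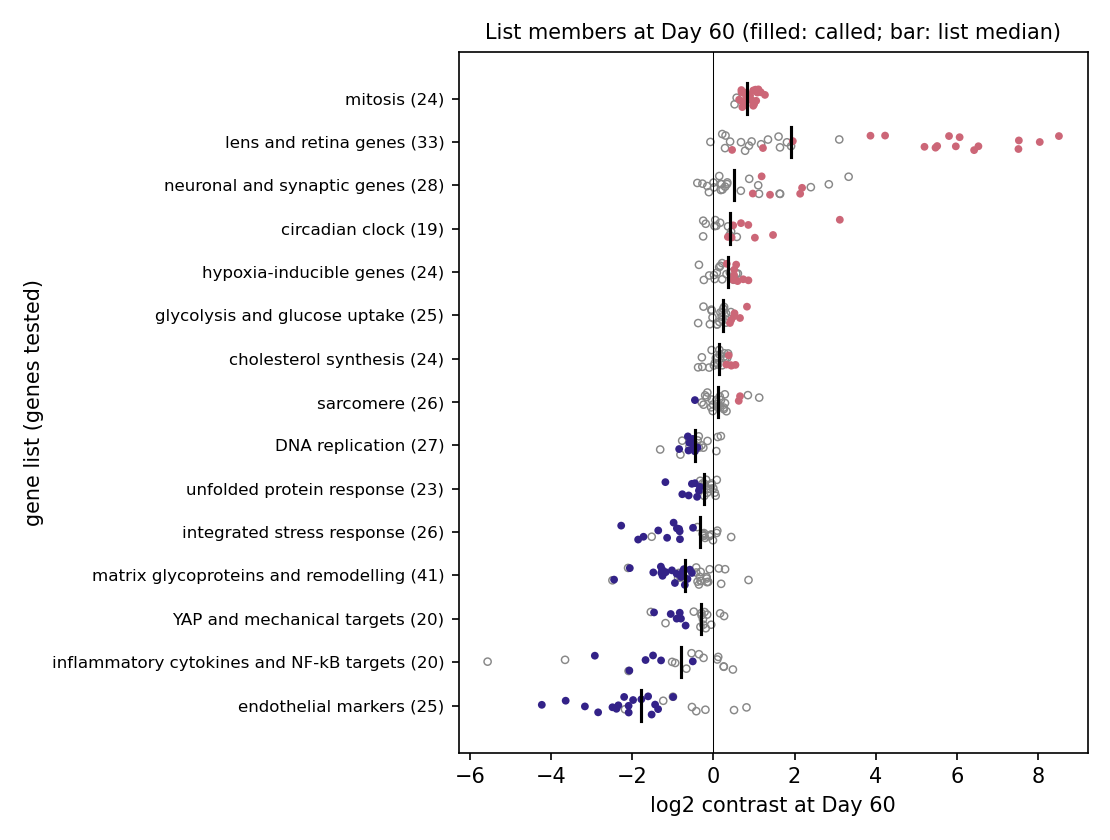
Contrast of every tested gene in 15 lists, 1 point per gene, filled when called (red higher, blue lower), with the list median as a bar. The 24 mitosis genes all lie above 0 with a median of 0.83, and of the lists drawn endothelial markers have the lowest median, -1.78.

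Further features are given over the sets as a description. The level and the order of the Day 60 wells come from the same counts that defined the sets. The median level was 27.4 CPM in peaks, 29.1 in troughs and 11.4 over all genes, and its part in the differences below was not tested. Of genes with a RefSeq type, 10.1% of peaks and 1.15% of troughs were long noncoding RNAs, against 15.1% of all genes. Median transcript GC content was 47.8% in peaks, 50.9% in troughs and 48.5% over all genes with a value, and median transcript length was 3990, 3970 and 3440 bases. The order among the Day 60 wells also differed: replicate 1 was the highest in 207 of 331 peaks, and replicate 2 was the highest in 236 of 442 troughs. Over all genes the highest Day 60 well was replicate 1, 2 or 3 in 6619, 6679 and 6571 cases.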

How the data were processed

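Poly(A) RNA of 11 wells was measured. Read counts per gene were deposited by the authors without normalization, made with STAR 2.5.3a and featureCounts 2.0.3 on hg38, per the submitters' processing notes. The annotation, strand setting and filters are not given in the sources used here. The deposited TPM table was not used, since count divided by TPM gave gene lengths that differed between libraries. Counts were scaled by TMM and fitted with edgeR 4.0.16 (quasi-likelihood F-test, R 4.3.3) over all 11 wells with day as the only factor and weights of -0.5, 1 and -0.5. The minimum count of 10 in filterByExpr removed 0 genes. Benjamini-Hochberg adjustment ran over 19990 genes, and adjusted p-values in the text come from edgeR where no other tool is given. The standard error is the size of the contrast divided by the square root of F. The test was tested on simulated data.

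Named genes are the 12 highest-ranked peaks and troughs with at least 5 CPM, 8 more of each with at least 100 CPM, and members of 61 gene lists. One gene that this rule names is not reported here. The members and lists were chosen with earlier results of these data known. List members named singly were picked with their values in view, and several whose call rested on 1 well were left out. Current symbols, gene types and promoters are from RefSeq (GRCh38.p14), which matched 18631 of 19990 genes. The E2F letters searched were narrowed from 4 forms to 2 after shares for the longer set had been seen. For 15 of 88 named genes an exon overlaps another gene of the table, so reads of both cannot be told apart without strand: SOX7, SULF2, KCNJ2, MYH7B, KIF20A, LAMB1, CCNA2, FOXM1, PAX6, ENO1, PFKFB2, DBP, ALDH1L2, MTHFD2 and ATF5. A floor of 3 counts stands for 0 in bounds, and covers counting error only. Wells of a day differed by more than sampling noise (chi-square over degrees of freedom, 11.4 to 84). Alternatives were other scalings, filters, tools (DESeq2 1.42.0, limma 3.58.1), weights, a replicate block and leaving out each well.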

Additional observations from a re-analysis of the deposited data

Results flagged for a closer look

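Among the named genes, 176 groups of 4 wells were examined for a well far from the other 3 of its day, by the gap to the nearest well as a share of the day's range, and 12 groups exceeded 0.829. Chance marks about 1 group in 20. Of these, 5 were Day 113 replicate 2 above the rest: CRYBA2 (4.8 CPM, next 0.401, share 0.928), CRYBB1 (37.6, next 2.94, share 0.939), CRYBA1 (20.5, next 2.25, share 0.931), CRYAA (9.64, next 0.26, share 0.973) and CKM (517 CPM, next 408, share 0.848). The first 4 of these are crystallin genes. Day 113 replicate 1 stood above its day for KCNG1 (15.2 CPM, next 6.02, share 0.832) and CDH5 (155 CPM, next 57.6, share 0.83). At Day 30, replicate 2 was alone above 0 for LIM2 (0.2 CPM, share 1.0) and was above the rest for TGFA (3.7 CPM, next 1.91, share 0.887) and ATF5 (11.8 CPM, next 11, share 0.903). Day 30 replicate 3 was alone above 0 for CRYAA (0.197 CPM, share 1.0) and was lowest for ENO1 (3170 CPM, next 3720, share 0.872). Day 60, with 3 wells, was not examined in this way.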

How the results depend on the processing

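Of 2287 recomputed contrasts of the 88 named genes, 2155 kept direction and side of the threshold, 107 lost their call, 25 gained one and 0 changed direction. These genes were top-ranked or picked with their values in view, and several resting on 1 well were left out. The tally therefore does not describe all called genes. The counts of genes called higher (875) and lower (993) and of peaks (331) and troughs (442) moved by over 1.5 times under few settings. Pooling the other 8 wells gave 33, 24, 33 and 24. An adjusted p under 0.01 gave 306, 312, 172 and 205, and a contrast of at least 1 in size gave 236, 365, 100 and 161, fewer by construction. The correction for gene length and GC content gave 1313 higher calls and 501 peaks, and the cause was not tested. Leaving out 1 well gave 299 to 1052 higher calls, 328 to 1169 lower calls, 200 to 423 peaks and 214 to 551 troughs. These counts include genes that were no peak or trough in the main fit, since without a Day 60 well fewer wells must lie outside the range. Of the 331 peaks and 442 troughs themselves, 151 and 196 were kept without Day 60 replicate 1. Without replicate 2, 252 and 308 were kept, and without replicate 3, 200 and 186. The fit with the well number as a replicate block gave 1063 higher and 1303 lower calls and kept 303 of the 331 peaks and 426 of the 442 troughs. With that block 24 of 24 mitosis genes were called higher, FOXM1, KIF23 and AURKB included, 14 collagens lower and 4 higher, and 12 interferon-stimulated genes lower. The numbers are not treated as pairs in the main fit, although wells of different days with the same number resembled each other. By deviation from the day mean, 8 of 10 same-number pairs correlated above 0.1, and 8 of 11 wells correlated best with their own number. The median correlation was 0.15 in same-number pairs and -0.0507 in other pairs. The p-values of the main fit take no account of this. Depth limits genes near the floor of 3 counts, 0.0856 to 0.12 CPM.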
